A study of Mus musculus with 16 samples.

Results

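Proliferation genes, 38 genes of DNA replication and mitosis, were followed by bulk RNA sequencing in mouse spinal cord in the chronic phase after injury. The genes were chosen by symbol from a list of S phase and mitosis genes. All 38 were found among the 24411 gene symbols of the tables of counts and of TPM (transcript abundance scaled for length and depth), 14 with a role in S phase or its onset and 24 in mitosis or its control. Female C57BL/6J mice received a lateral compression spinal cord injury (SCI) at 12 weeks of age, made at the thoracic level with forceps held 0.25 mm apart. Daily intraperitoneal injections began 2 weeks later and ran for 4 weeks, with 10 mg/kg atorvastatin, an HMG-CoA reductase inhibitor, in 7 mice (SCI + Atorvastatin) and with the carrier of DMSO, PEG 400, Tween 80 and saline in 7 mice (SCI + Vehicle). The 2 Uninjured Control mice had neither injury nor injections, so injury and injections cannot be told apart in a comparison with them. Their age is 12 weeks in the sample labels and older in the study's methods, so a difference in age from the SCI mice at collection cannot be told apart from injury either. A 5 mm length of cord around the lesion, or the matching level in controls, was sequenced once per mouse.

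A dividing cell first loads the MCM2-7 helicase onto DNA, then copies its genome with the help of the sliding clamp PCNA and a fresh supply of deoxynucleotides. Entry into mitosis follows when CDK1 pairs with cyclins A and B, after which the mitotic kinases, kinesins and kinetochore proteins condense, align and separate the chromosomes. Transcription of the S phase group is classically tied to E2F factors and that of the mitosis group to the MuvB complex with B-MYB and FOXM1. Most neurons and mature oligodendrocytes of the adult cord do not divide. Microglia, infiltrating leukocytes, astrocytes, oligodendrocyte precursors, ependymal cells and fibroblasts are known to divide after cord injury, mainly in the early weeks.

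The 2 control libraries stood apart from those of the SCI mice. At 20211276 and 22368736 counts, they were within the range of the SCI libraries (14823292 to 25579826 counts), yet 21.8% and 24.1% of the 16091 tested genes had 0 counts in them, against 2.57% to 5.76% in the SCI mice. Counts of 1 to 49 were fewer in the controls, at 3.41% and 3.29% of tested genes against 8.51% to 14.4%. Liver transcripts were also present in the controls, where 7 of 7 listed liver genes had counts with a summed TPM of 6186 and 1162, against 1.68 to 11.6 in the SCI mice. How far these features of the control libraries enter the comparisons with them was not tested.

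Among the proliferation genes, 15 had 0 counts in both controls, 13 had 0 counts in 1 control and 10 had counts in both. The 15 genes without a control count were Tk1 and Uhrf1 of the S phase group and 13 of the mitosis group, among them Top2a, Bub1b, Ccna2 and Plk1. A count of 0 allows up to 3 counts by counting error, or 0.151 and 0.136 CPM (counts scaled to library size and normalized by TMM) in the 2 controls. For the 13 genes at 0 in 1 control, the other control had 72 to 299 counts, with a median of 123. A 0 in 1 control thus stood beside a count well above 3 in the other, and a 0 in a control is given here as a limit of the library only. Of the 13, 9 were at 0 in control 1 and 4 in control 2.

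**Figure D1:**
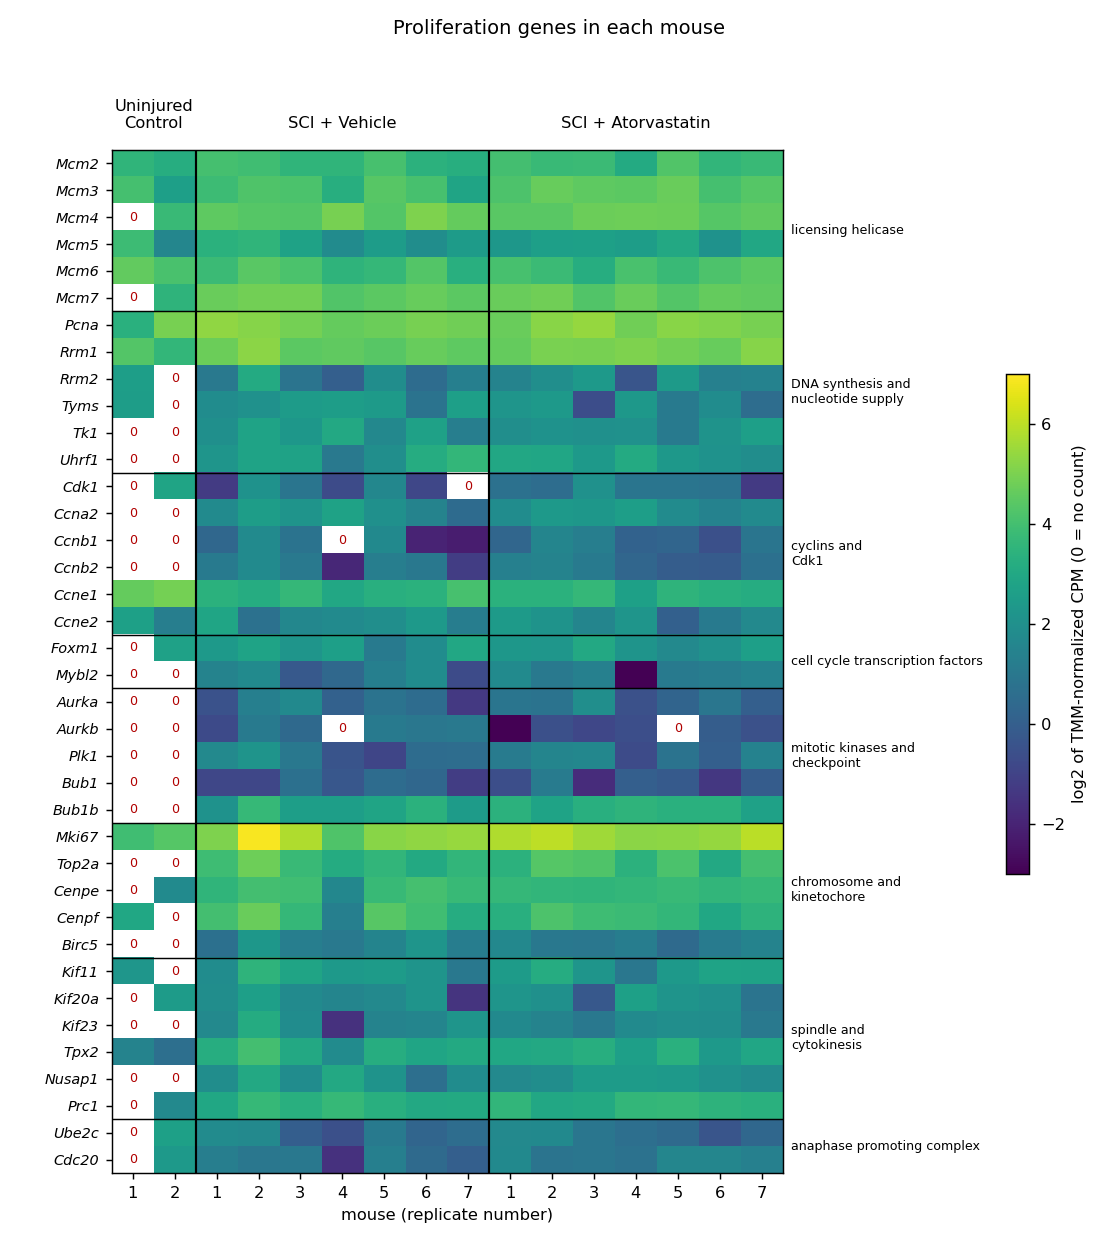
Level of each proliferation gene (rows, grouped by role) in each mouse (columns), as log2 of TMM-normalized CPM, with 0 marking a library without a count. Both control columns are at 0 for 15 genes and 1 of the 2 for 13 genes, while 3 genes have a 0 in any of the 14 SCI mice.

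Zeros in both controls were common in genes of like abundance. Of tested genes with a mean under 50 counts in the 14 SCI mice, 61.9% were at 0 in both controls, and 6 of 9 proliferation genes were. The shares were 47.3% and 3 of 7 genes at 50 to 100 counts, 20.2% and 4 of 8 at 100 to 200, and 5.34% and 1 of 8 at 200 to 500. The single gene in that last range was Top2a. Over all 15947 tested genes with a count, 14.4% were at 0 in both controls, against 14 of 37 proliferation genes, which lie toward the low end of the count range.

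**Figure D2:**
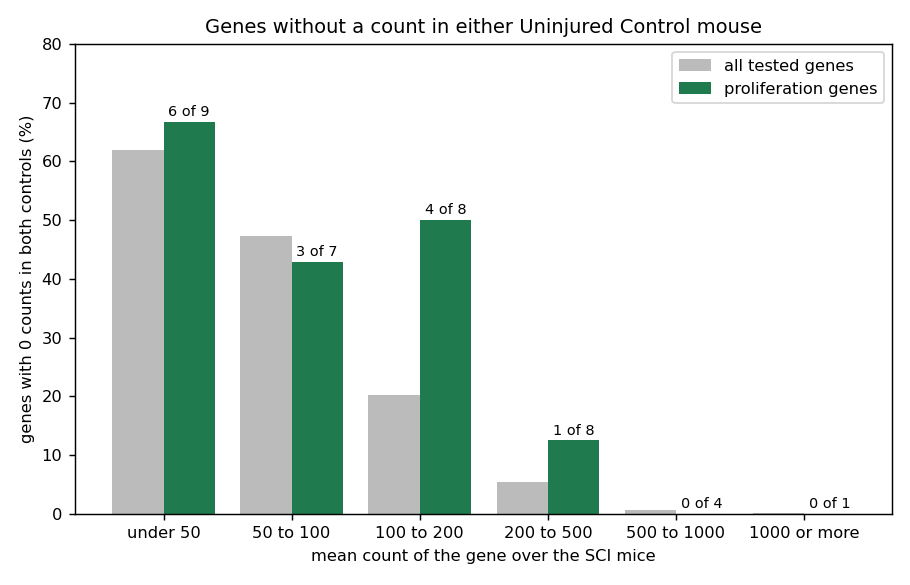
Share of genes with 0 counts in both Uninjured Control mice (percent, bars from 0) by mean count over the 14 SCI mice, for all tested genes (grey) and for the proliferation genes (green, with their number). The grey share falls from 61.9% under 50 counts to 0.175% at 1000 counts or more, and the green bars lie close to it below 100 counts.

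The comparisons of each injured group with the Uninjured Control group took in injury and injections together, with any difference in age or between the libraries. The comparison between the injured groups addressed what atorvastatin changes. A gene was tested when its mean TPM passed 1 in any group. All proliferation genes but Bub1 passed, 20 of the 37 only through an SCI group, among them all those at 0 in both controls. Counts over the 37 are therefore descriptions, and so are the p-values of those 20 genes against controls. A gene was called a differentially expressed gene (DEG) against controls at an adjusted p under 0.05 in edgeR's quasi-likelihood test and a change over 25% (0.322 on the log2 scale). Both comparisons use the same 2 controls and are given side by side.

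With vehicle, 14 of the 37 genes were called higher than in controls and 1, Ccne1, was called lower. Over all tested genes 19.9% were called higher, 9.91% lower and 29.8% in either direction. With atorvastatin, 17 were called higher and Ccne1 was again lower, with 24.9%, 14.0% and 38.9% of all tested genes called higher, lower and in either direction. A limma voom fit with group quality weights called none of the 37 in either comparison (133 and 146 genes over the whole table). Calls followed the zeros in the controls. With vehicle, 13 of the 14 tested genes at 0 in both controls were called higher, where 68.5% of all genes of that kind were (1667 of 2433). With atorvastatin 14 of 14 were, where 78.3% of such genes were (1906 of 2433). Of the 2433 genes, 2289 had a count in any mouse, and the shares among those are larger. Of the 13 genes at 0 in 1 control, none was called by edgeR in either comparison, against 7.54% of such genes called higher and 2.17% lower with vehicle, and 9.48% and 4.19% with atorvastatin. At an unadjusted p under 0.05 in edgeR, 1 of the 13 passed with vehicle (Cenpe) and 2 with atorvastatin (Cenpe and Prc1), and DESeq2 called these 2 genes in both comparisons. Of the 10 genes with counts in both controls, 1 was called higher with vehicle (12.0% of such genes) and 3 with atorvastatin (16.7%). Ccne1 was the 1 called lower in each (13.8% and 19.3% of such genes).

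The median log2 fold change of the 37 genes was 1.93 with vehicle and 1.85 with atorvastatin, beside 0.17 and 0.21 over all tested genes. With genes at 0 in both controls set to their bound, the medians were 1.93 and 1.80. At that bound the 14 S phase genes had a median of 0.49 with vehicle and 0.58 with atorvastatin. The 23 tested mitosis genes had 3.29 and 2.83, and 8.01 and 6.58 without the bound. Of the 24 mitosis genes 13 were at 0 in both controls, against 2 of the 14 S phase genes. The mitosis medians thus depend on the bound, and a difference from the S phase genes or from all tested genes was not tested. Bulk tissue does not separate a larger number of dividing cells from more RNA per cell.

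The MCM2-7 helicase unwinds DNA at replication origins. None of its 6 genes was called by edgeR in either comparison with controls, with 0 of 6 at an unadjusted p under 0.05 with vehicle and 1 of 6 (Mcm3) with atorvastatin. DESeq2 called none of them with vehicle and Mcm3 with atorvastatin. Mcm2, Mcm3, Mcm5 and Mcm6 had levels in the injured cord that overlapped those of the controls. Mcm4 and Mcm7 did not: Mcm4 was at 20.0, 22.7 and 33.9 normalized CPM (lowest, median and highest mouse) with vehicle and 20.3, 23.3 and 27.7 with atorvastatin, against 0 and 13.5 in controls. Mcm7 was at 19.7, 25.8 and 29.6 with vehicle and 19.3, 25.1 and 28.5 with atorvastatin, against 0 and 11.4. All 14 SCI mice thus lay above both controls for these genes, a pattern that 24.8% of tested genes showed with vehicle and 29.8% with atorvastatin, but with 1 control at 0 the fold had a wide interval. For Mcm7 with vehicle the log2 fold change over controls was 2.12 (95% interval -0.37 to 4.60, edgeR adjusted p = 0.184).

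Pcna, which encodes the sliding clamp of the replicative polymerases, was the S phase gene with the largest mean TPM in both injured groups, at 69.7 ± 14.79 with vehicle and 77.0 ± 12.8 with atorvastatin (mean ± SD over 7 mice each). Its normalized CPM was 24.8, 30.4 and 40.6 with vehicle and 26.0, 34.7 and 42.3 with atorvastatin. The controls differed from each other, at 10.1 and 30.8, and the second lay inside both injured ranges. The log2 fold change was 0.59 ± 0.38 (SE, edgeR adjusted p = 0.264) with vehicle and 0.74 ± 0.36 (SE, adjusted p = 0.133) with atorvastatin. The size of the Pcna estimate depended on control 2. Leaving that mouse out raised it to 1.61 (SCI + Vehicle) and 1.74 (SCI + Atorvastatin) on the log2 scale. These estimates rest on control 1 alone, whose spread cannot be measured, so no call is drawn from them.

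Rrm1, the large subunit of ribonucleotide reductase (chr7:102441695-102469771, GRCm38), had counts in both controls. Its normalized CPM was 20.1 and 12.2 in controls, 21.0, 23.4 and 38.2 with vehicle and 25.01, 31.1 and 36.2 with atorvastatin. All SCI mice were above both controls. It was called higher with atorvastatin (log2 fold change 0.91 ± 0.25 SE, edgeR adjusted p = 0.0142) and missed the threshold with vehicle (0.67 ± 0.31 SE, adjusted p = 0.131). The 2 treatments were not shown to differ, with a log2 fold change of 0.23 for atorvastatin over vehicle (95% interval -0.05 to 0.51).

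Rrm2, the small subunit, and Tyms, thymidylate synthase, were at 6.02 and 5.92 normalized CPM in control 1 and at 0 in control 2. In SCI mice Rrm2 ranged from 0.781 to 8.65 and Tyms from 0.644 to 6.34, on both sides of control 1 for each. Tk1, the salvage enzyme thymidine kinase, and Uhrf1, which carries DNA methylation through replication, had no count in either control. Tk1 was at 2.42, 4.86 and 8.10 with vehicle and 2.10, 4.11 and 6.26 with atorvastatin. Uhrf1 was at 2.04, 6.83 and 12.2 with vehicle and 3.70, 5.30 and 8.63 with atorvastatin. Against the 3-count floor of the controls, mean Tk1 was at least 34.3-fold and 27.5-fold higher and mean Uhrf1 at least 43.6-fold and 40.3-fold higher, for vehicle and atorvastatin in turn. These bounds, like those that follow, cover counting error only. They are not lower limits on the change itself, since genes at 0 in 1 control had 72 to 299 counts in the other.

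Ccne1 was the single proliferation gene called lower after injury. It encodes cyclin E1, the partner of CDK2 at the onset of S phase, and lies at chr7:38097984-38107490 (GRCm38). The controls had 24.9 and 30.3 normalized CPM (495 and 668 counts). The SCI mice had 8.03, 10.3 and 17.2 with vehicle and 6.37, 10.4 and 12.6 with atorvastatin, so the groups did not overlap. The log2 fold change was -1.33 ± 0.32 (SE, edgeR adjusted p = 0.0106) with vehicle and -1.45 ± 0.27 (SE, adjusted p = 0.00218) with atorvastatin. A level below both controls in all 7 mice was found for 10.7% of tested genes with vehicle and 14.2% with atorvastatin. Ccne2, the paralog, had 6.43 and 2.40 in controls and 1.05 to 7.43 in SCI mice, which overlapped.

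Cdk1, the kinase that drives entry into mitosis, was low in the injured cord and split between the controls. SCI mice had 0, 0.613 and 4.28 normalized CPM with vehicle and 0.406, 1.75 and 4.11 with atorvastatin. The controls had 0 and 7.07 (0 and 156 counts), so the SCI mice lay at or above the first and below the second. The log2 fold change was -1.21 (95% interval -4.80 to 2.38, edgeR adjusted p = 0.618) with vehicle and -0.90 (-3.62 to 1.82, adjusted p = 0.600) with atorvastatin. Its sign rested on control 2, without which SCI mice were compared with a 0.

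The cyclins that partner Cdk1 in G2 and mitosis had no count in either control. Ccna2 was at 1.41, 4.09 and 6.81 normalized CPM with vehicle and 2.72, 3.65 and 6.13 with atorvastatin, at least 27.5-fold and 28.0-fold higher on average than the floor of the controls. Ccnb2 reached at least 12.0-fold and 11.6-fold. Ccnb1 reached at least 9.79-fold with vehicle, where 1 mouse had no count and the test missed the threshold (edgeR adjusted p = 0.0548), and 10.9-fold with atorvastatin, where it passed (adjusted p = 0.00149).

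The transcription factor Foxm1 had 0 and 6.61 normalized CPM in controls and 2.20 to 8.28 in SCI mice. Mybl2, which encodes B-MYB, had no control count and was called in both comparisons, at 0.616, 2.505 and 3.59 with vehicle and 0.123, 2.38 and 3.44 with atorvastatin.

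The mitotic kinases and checkpoint genes Aurka, Aurkb, Plk1 and Bub1b had no control count and were all called higher in both comparisons. Bub1b (chr2:118598202-118641592, GRCm38), the checkpoint protein BUBR1, was the most abundant of them, with 4.24, 6.10 and 12.9 normalized CPM with vehicle and 6.54, 10.1 and 11.4 with atorvastatin. Its mean was at least 49.9-fold and 62.3-fold above the floor of the controls (edgeR adjusted p = 0.000306 and 3.45e-05). With both controls at 0, these p-values are descriptions. Plk1 and Aurka lay at 0.396 to 4.49 in SCI mice. Aurkb, the kinase of the chromosomal passenger complex, was the least certain call, with 0, 1.96 and 2.18 with vehicle (adjusted p = 0.0294) and 0, 0.658 and 0.972 with atorvastatin (adjusted p = 0.0475). Its call was lost without SCI + Vehicle replicate 2 (adjusted p = 0.0516), replicate 5 (0.0510) or control 2 (0.0534) in the first comparison, and without any of SCI + Atorvastatin replicates 2, 3, 4, 6 and 7 or either control in the second (0.0679 to 0.104). A single mouse in each injured group had no Aurkb count. Bub1 was not tested, with 6 to 50 counts in SCI mice and none in controls.

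Mki67, which encodes the proliferation marker Ki-67 (chr7:135689784-135716450, GRCm38), was the mitosis gene with the largest mean TPM in both injured groups, at 12.4 ± 8.10 with vehicle and 12.9 ± 2.97 with atorvastatin (mean ± SD over 7 mice each), where controls had 2.32 and 5.37. Both controls had counts (305 and 459), or 15.3 and 20.8 normalized CPM. SCI mice had 19.0, 40.0 and 118 with vehicle and 38.6, 48.2 and 64.8 with atorvastatin. All mice given atorvastatin were above both controls, and with vehicle 1 mouse, replicate 4, lay between the 2 controls. The log2 fold change was 1.49 ± 0.26 (SE, edgeR adjusted p = 0.00131) with atorvastatin and 1.45 ± 0.58 (SE, adjusted p = 0.0851) with vehicle. Without replicate 4 the vehicle comparison passed the threshold (1.59, edgeR adjusted p = 0.0470). It did not pass when any other single vehicle mouse was left out (edgeR adjusted p 0.0647 to 0.124). Without replicates 2 and 4 together, a choice made after seeing the data, it passed (1.21, edgeR adjusted p = 0.0183).

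Top2a, the topoisomerase that untangles replicated chromosomes, had no count in either control and 132 to 661 counts in SCI mice, the largest median count of the 15 genes without a control count. Its normalized CPM was 8.49, 11.9 and 27.8 with vehicle and 8.16, 16.3 and 20.6 with atorvastatin, at least 92.6-fold and 98.2-fold above the floor of the controls (edgeR adjusted p = 0.000167 and 4.54e-05). Birc5, which encodes survivin, was at least 19.8-fold and 15.0-fold higher by the same bound. With both controls at 0, the p-values of Top2a are descriptions. The kinetochore genes Cenpe and Cenpf had counts in 1 control each, 77 and 154, and were not called (adjusted p from 0.0746 to 0.308).

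**Figure D3:**
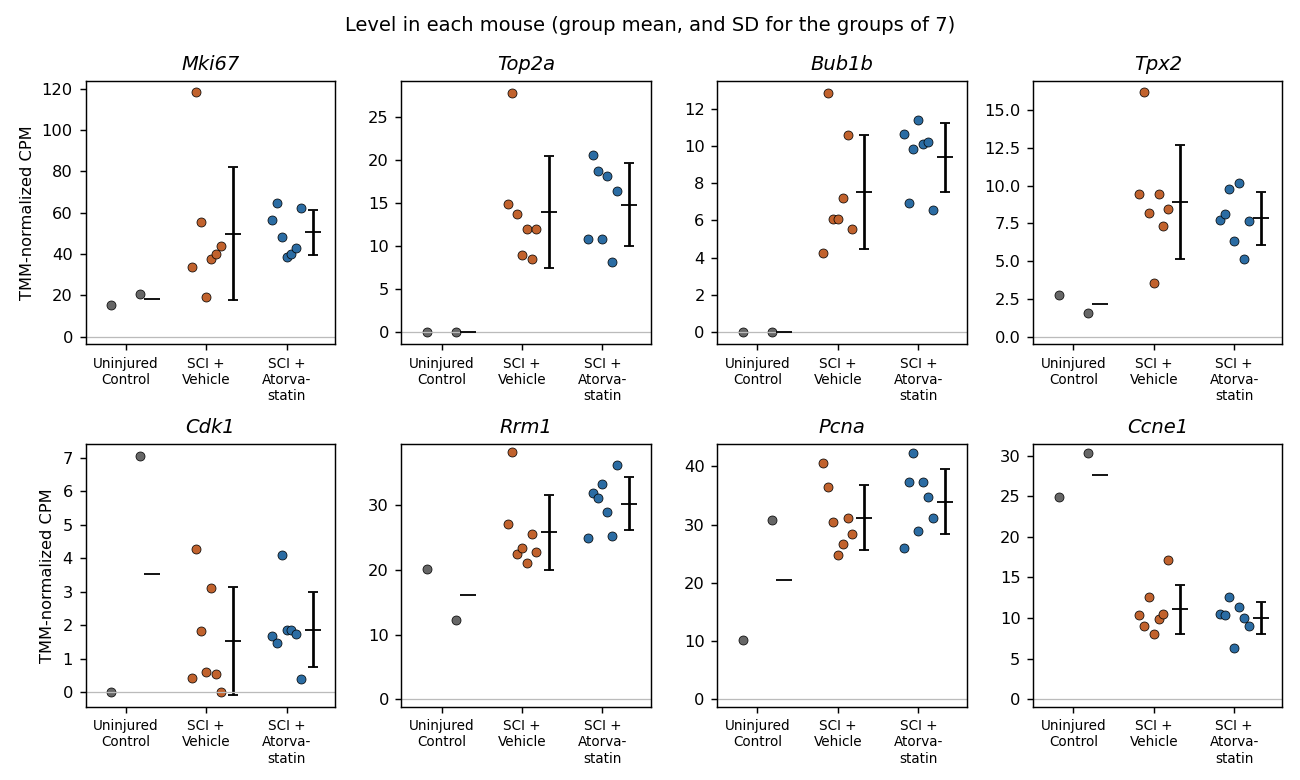
TMM-normalized CPM of 8 proliferation genes in each mouse (points), with the group mean (dash) and the SD for the groups of 7 (bar). Top2a and Bub1b have both controls at 0, Tpx2 and Rrm1 have both controls below all SCI mice, Ccne1 has both controls above all SCI mice, and Cdk1 (0 and 7.07) and Pcna (10.1 and 30.8) have controls far from each other.

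Tpx2, which nucleates spindle microtubules and activates Aurora A (chr2:152847964-152895321, GRCm38), was the only mitosis gene with counts in both controls that was called in both comparisons. It had 2.76 and 1.59 normalized CPM in controls (55 and 35 counts), 3.54, 8.45 and 16.2 with vehicle and 5.15, 7.75 and 10.2 with atorvastatin. No SCI mouse overlapped the controls. The log2 fold change was 2.03 ± 0.64 (SE, edgeR adjusted p = 0.0350) and 1.86 ± 0.47 (SE, adjusted p = 0.00997). With vehicle the call was lost when replicate 1, 2, 3, 5 or 6 or control 2 was left out (adjusted p 0.0537 to 0.0627).

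Of the other spindle and cytokinesis genes, Kif23 and Nusap1 had no control count and were called in both comparisons. Kif23, a kinesin of the central spindle, was at least 25.2-fold and 20.1-fold above the floor, and Nusap1, which bundles spindle microtubules, 31.6-fold and 29.6-fold. Prc1, which holds the central spindle together, was at 7.77, 9.80 and 12.9 normalized CPM with vehicle and 7.96, 11.0 and 12.6 with atorvastatin, above 0 and 3.26 in controls, and was not called (adjusted p = 0.125 and 0.0902). The motors Kif11 and Kif20a had SCI values on both sides of the control that had counts.

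Ube2c and Cdc20 act with the anaphase promoting complex, which marks cyclins and securin for destruction. Control 2 had 143 and 115 counts of them, more than any SCI mouse (10 to 84 for Ube2c and 5 to 82 for Cdc20), and control 1 had none. Neither was called by edgeR or DESeq2 or had an unadjusted p under 0.05, with edgeR log2 fold changes of -0.78 and -0.67 with vehicle and -0.74 and -0.06 with atorvastatin. Together with Cdk1, these genes were the ones in which a control exceeded all 14 SCI mice while the other was at 0.

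The deposited TPM did not always follow the counts in the controls. For 7 proliferation genes, a control with counts was listed at a TPM of 0, for example Cenpf with 154 counts and Mcm3 with 138. In all, 20 genes had a TPM of 0 in both controls. Of all genes with at least 50 and under 200 counts, 16.0% and 20.9% had a TPM of 0 in the controls, 9.81% in SCI + Vehicle replicate 1 and 1.48% to 3.14% in the other SCI mice. Both summed TPM and summed normalized CPM are therefore given for the proliferation genes. In the controls the 24 mitosis genes summed to 3.77 and 37.9 TPM, and in the injured groups to 83.8 ± 34.3 with vehicle and 83.4 ± 9.51 with atorvastatin (mean ± SD over 7 mice each). In normalized CPM they summed to 164 ± 69.6 and 164 ± 17.7, against 30.5 and 60.1. The 14 S phase genes summed to 190 ± 30.1 TPM and 203 ± 7.92, against 133 and 180. In normalized CPM they summed to 192 ± 22.6 and 201 ± 10.5, against 141 and 137. The mitosis sum was above both controls in all 14 SCI mice on both scales (lowest mouse 56.7 TPM and 93.5 normalized CPM). The S phase sum was above both controls in all 14 in normalized CPM (lowest mouse 164), while in TPM the lowest SCI mouse, at 155, lay between the controls.

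Atorvastatin and vehicle were then compared after injury. None of the 37 genes was called at an unadjusted p under 0.001 and a change over 25% (0.106% of all tested genes were, 0.0870% higher and 0.0186% lower with atorvastatin), and none reached an adjusted p under 0.05 in edgeR, where no tested gene did. DESeq2 called none either. At an unadjusted p under 0.05 there was 1 gene, Mcm3, against 7.03% of all tested genes (4.02% higher and 3.01% lower). The 2 injured groups overlapped for each of the 38 genes. Over all tested genes, 0.0559% were higher and 0.0311% lower without overlap. The median log2 fold change of the 37 genes was 0.02, with 20 above and 17 below 0, beside a median of -0.0014 over all tested genes.

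Mcm3, a subunit of the replicative helicase, was at 7.09, 17.1 and 20.9 normalized CPM with vehicle and 16.5, 22.5 and 26.1 with atorvastatin, and the groups overlapped. The log2 fold change was 0.52 ± 0.20 (SE, edgeR unadjusted p = 0.0155, adjusted p = 0.680). Leaving out any 1 mouse kept it between 0.40 and 0.61.

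For 3 of the well counted S phase genes the 95% intervals stayed near the 25% change used for calls (0.322 on the log2 scale). Mcm7 differed by -0.05 on the log2 scale (95% interval -0.31 to 0.20), Mcm4 by -0.03 (-0.32 to 0.26), Pcna by 0.12 (-0.15 to 0.39). The intervals of 3 mitosis genes were wider, for Prc1 at 0.10 (-0.26 to 0.46), Mki67 at 0.01 (-0.53 to 0.56) and Top2a at 0.08 (-0.43 to 0.60). For sparsely counted genes a change of several-fold remained within the interval. Cdk1 differed by 0.27 (-1.21 to 1.76), Ccnb1 by 0.14 (-1.34 to 1.62) and Aurkb by -1.49 (-3.18 to 0.20, adjusted p = 0.742), the largest difference of the 37. The intervals do not show equal levels in the 2 groups.

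**Figure D4:**
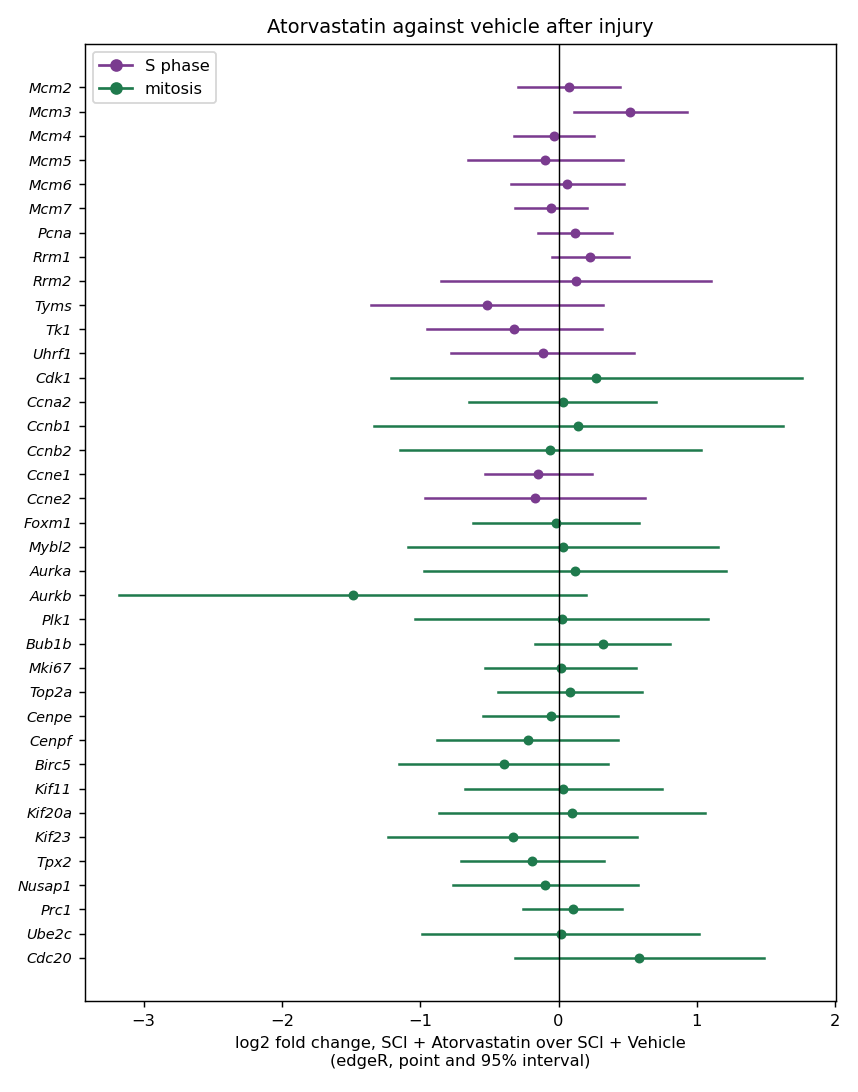
Log2 fold change of SCI + Atorvastatin over SCI + Vehicle for the 37 tested proliferation genes (points, with 95% intervals as lines) from edgeR, in purple for S phase and green for mitosis. All intervals but that of Mcm3 (0.11 to 0.93) include 0, and that of Aurkb is the widest, from -3.18 to 0.20.

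The spread among mice was larger for mitosis than for S phase genes, and larger with vehicle. The median coefficient of variation was 52.6% with vehicle and 32.1% with atorvastatin for the 24 mitosis genes, and 31.5% and 23.1% for the 14 S phase genes. It was larger with vehicle for 22 of 24 and 12 of 14 genes, and without SCI + Vehicle replicates 2 and 4 for 17 of 24 and 10 of 14. The difference in spread was not tested, and it was not set against that of all tested genes. The genes were measured in the same mice and are not separate observations. Spread was not set against abundance, and the genes with the fewest counts, such as Aurkb and Bub1 (SCI medians of 16.5 and 19.5 counts), were mitosis genes. The vehicle group also held the library with the fewest counts, replicate 4.

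SCI + Vehicle replicates 2 and 4 lay at or near the ends of the range for many genes. SCI + Vehicle replicate 2 was the highest of the 14 SCI mice for 18 of 38 genes, 14 of them mitosis genes and 4 S phase genes. Its Mki67 was 118 normalized CPM, where the next of the vehicle mice had 55.5, its Top2a 27.8 against 14.82, and its summed mitosis level 157 TPM, the highest of the 14. SCI + Vehicle replicate 4, the library with the fewest counts, was the lowest for 12 genes, 9 of them mitosis genes, and the highest for 3. SCI + Vehicle replicate 7 was close to it, with median ranks of 11.5 for mitosis and 11.0 for S phase genes (12.0 and 12.5 for replicate 4). Its summed S phase level, 154.9 TPM, was the lowest of the 14.

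Markers of blood and marrow cells were read in replicates 2 and 4, which were picked for their extreme values. A relation over all 14 SCI mice was not tested. Replicate 2 ranked 1 of 14 for the lymphocyte list (summed TPM 16.3, median of the 14 SCI mice 4.38), for the marrow granulocyte precursor list (367.2, median 85.5) and for the erythroid list (3483, median 628). Replicate 4 ranked 14 of 14 for lymphocyte and erythroid genes (0 and 61.3 TPM) and 7 for marrow granulocyte precursors (89.1). For microglia or macrophage genes replicate 2 ranked 2 and replicate 4 ranked 13. For fibroblast genes the ranks were 3 and 13. In normalized CPM these ranks were the same but for replicate 2 in the lymphocyte list, at 2 of 14. The part of these cells in the proliferation genes was not tested. Without both mice, 16 proliferation genes were called with vehicle against controls, among them all 15 of the full comparison, and none between treatments. Without replicate 2 alone, Mki67 was 0.39 higher with atorvastatin on the log2 scale (edgeR unadjusted p = 0.0442, adjusted p = 0.530).

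Cell type markers were read across the groups as well. Against controls, 4 of 7 microglia or macrophage genes were called higher with vehicle and 5 with atorvastatin, beside 19.9% and 24.9% of all tested genes. Of 3 astrocyte genes, Aqp4 and Gfap were called higher in both comparisons, while Aldh1l1 had log2 fold changes of -0.57 and -0.53 (edgeR adjusted p = 0.0913 and 0.105, with unadjusted p under 0.05 in both). Of 4 oligodendrocyte precursor genes, Cspg4 and Gpr17 were called higher in both and Pdgfra with atorvastatin. Olig1 was called lower with atorvastatin (-0.56, adjusted p = 0.0260) and not with vehicle (-0.52, unadjusted p = 0.0202, adjusted p = 0.0621). Of 4 fibroblast genes, none was called with vehicle and 3 were called higher with atorvastatin. Between treatments, all 4 fibroblast genes had an unadjusted p under 0.05 in edgeR and were higher with atorvastatin, by 0.80 to 1.36 on the log2 scale, with none past the threshold for a call. Of 7 neuron genes, 4 were called lower with vehicle and 5 with atorvastatin, beside 9.91% and 14.0% of all tested genes. Microglia or macrophage genes summed to 525 to 840 TPM with vehicle and 746 to 979 with atorvastatin, against 76.3 and 132 in controls. Astrocyte genes summed to 6617 to 8150 and 7374 to 8490, against 1692 and 2515, and oligodendrocyte precursor genes to 187 to 278 and 233 to 291, against 234 and 178. Fibroblast genes summed to 54.3 to 601 and 360 to 972, against 115 and 101, and neuron genes to 1847 to 2680 and 1655 to 2181, against 2790 and 3423.

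The remaining lists follow. Against controls, 0 of 3 endothelial genes were called higher with vehicle and 1 with atorvastatin, and 1 and 2 of 4 ependymal genes. The counts were 1 and 3 of 7 for both marrow granulocyte precursor and erythroid genes, and 1 and 0 of 6 for skeletal muscle. Over all tested genes 19.9% and 24.9% were called higher, and none of these genes was called lower. Endothelial genes summed to 64.4 to 118 TPM in SCI mice and 102 and 71.7 in controls, and ependymal genes to 31.0 to 61.4 and 47.7 and 22.7, with Tmem212 and Dnah11 at 0 counts in both controls. All 6 measured lymphocyte genes were at 0 in both controls and summed to 0 to 16.3 TPM with vehicle and 2.95 to 6.39 with atorvastatin. Of the 3 tested, none was called with vehicle and 3 were called higher with atorvastatin, where 78.3% of genes at 0 in both controls were. Marrow granulocyte precursor genes summed to 37.6 to 367.2 TPM in SCI mice and 47.1 and 115 in controls, where Elane, Prtn3, Ctsg and Camp were at 0. Erythroid genes summed to 61.3 to 3483 TPM in SCI mice and 870 and 395 in controls, with the globin genes Hbb-bt, Hbb-bs and Hba-a1 at 0 counts in all 16 mice while their TPM made up most of the sum. In normalized CPM, where these genes add nothing, the erythroid list summed to 6.81 to 58.0 with vehicle and 11.1 to 22.3 with atorvastatin, against 7.23 and 0.815 in controls. Skeletal muscle genes summed to 5.21 to 796 TPM with vehicle, 12.6 to 3227 with atorvastatin and 32.4 and 74.4 in controls. Their part in the proliferation genes was not tested.

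Further genes of the same pathways were counted. Of 34 tested other replication genes, 8 were called higher and 1 lower with vehicle against controls, and 9 and 1 with atorvastatin, beside 19.9% and 9.91% of all tested genes with vehicle and 24.9% and 14.0% with atorvastatin. In each comparison 8 of the higher ones were at 0 in both controls. The 5 with the smallest p were the same in both, namely Chaf1a (histone deposition behind the fork), Cdk2 (the S phase kinase), Cdc45 and Gins2 (helicase cofactors) and Gmnn (geminin, which limits licensing), all with no control count. Chaf1a had 208 to 518 counts with vehicle and 214 to 373 with atorvastatin, a mean at least 90.6-fold and 83.5-fold above the floor. The gene called lower was Rfc3, a clamp loader subunit (log2 fold change -2.05 and -1.72, adjusted p = 0.00871 and 0.0370), chosen for mention after its values were seen.

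Of 46 tested other mitosis genes, 18 were called higher and 2 lower with vehicle, and 21 and 2 with atorvastatin, beside the same shares of all tested genes. Both controls were at 0 for 16 and 17 of the higher ones, a kind of gene of which 68.5% and 78.3% were called higher over the whole table. Kif22, a chromosome-arm motor, Aspm, a spindle pole protein, and Ncaph, a condensin subunit, were among the 5 with the smallest p in both comparisons, with Fbxo5 and Dlgap5 with vehicle and Iqgap3 and Pbk with atorvastatin. All of these had no control count. Nuf2 and Cit were lower in both and were singled out after their values were seen, with log2 fold changes of -1.39 for Nuf2 in both comparisons and of -0.55 and -0.65 for Cit.

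Of 11 genes that act in G1, before commitment to S phase, 4 were called higher in each comparison (19.9% and 24.9% of all tested genes), 3 of them with counts in both controls (12.0% and 16.7% of such genes). Ccnd2, cyclin D2, was at 60.6 to 99.1 normalized CPM with vehicle and 80.6 to 113 with atorvastatin, against 30.8 and 46.5 in controls (log2 fold change 0.99 ± 0.23 and 1.31 ± 0.19 SE, edgeR adjusted p = 0.00943 and 0.000418). Ccnd3, cyclin D3, rose by 0.87 and 1.08 on the log2 scale and the pocket protein gene Rb1 by 0.55 and 0.59 (adjusted p 0.0210 to 0.0486). Rbl1, which encodes p107, had no control count and 90 to 314 counts in SCI mice. No gene of these 3 lists was called between treatments.

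The promoters of the proliferation genes were then read for motifs tied to the timing of the cycle. RefSeq promoters (GRCm38.p6, 250 bases before to 50 after the start) were matched for 31 of the 38 genes, with 34 starts. Those of Mcm4, Ccna2, Ccne2, Foxm1, Aurkb, Kif20a and Tpx2 were not used here. Each was searched on both strands for CCAAT (the NF-Y box), TTTGAA (the cell cycle genes homology region, CHR, a MuvB contact) and an E2F-type site spelled TTTGGCGC, TTTCCCGC, TTTCGCGC or TTTGCCGC, whose matches on opposite strands can overlap. Of the 20 mitosis promoters, 85.0% held an NF-Y box, 70.0% a CHR and 5.0% an E2F-type site. Of the 14 S phase promoters the shares were 78.6%, 7.14% and 35.7%. Over all 32851 promoters they were 37.4%, 17.9% and 2.26%. An NF-Y box and a CHR in the same window were found in 70.0% of mitosis, 7.14% of S phase and 6.95% of all promoters.

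The following stretches upstream of the start, 5′ to 3′ on the strand of the gene, show the mitosis arrangement with matches in capitals. Top2a, Cdk1, Mki67 and Ube2c are shown because their promoters share NF-Y boxes and a CHR while the number of controls with counts differed. Ccnb2 is shown for its row of evenly placed NF-Y boxes. A missing control count is a limit of the library only and is not read here as a lower level.
Top2a, chr11:99024200-99024299, minus strand: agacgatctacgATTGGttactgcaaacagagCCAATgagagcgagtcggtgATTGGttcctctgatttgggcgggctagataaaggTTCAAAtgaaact
Cdk1, chr10:69352913-69353012, minus strand: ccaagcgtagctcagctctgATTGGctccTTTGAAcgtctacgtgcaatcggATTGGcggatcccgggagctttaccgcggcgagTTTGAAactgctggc
Mki67, chr7:135716470-135716579, minus strand: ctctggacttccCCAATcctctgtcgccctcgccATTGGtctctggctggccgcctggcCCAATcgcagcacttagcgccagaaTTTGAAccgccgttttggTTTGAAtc
Ube2c, chr2:164769829-164769928, plus strand: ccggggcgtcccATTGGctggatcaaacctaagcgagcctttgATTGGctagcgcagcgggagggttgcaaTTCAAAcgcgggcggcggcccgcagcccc
Ccnb2, chr9:70421555-70421654, minus strand: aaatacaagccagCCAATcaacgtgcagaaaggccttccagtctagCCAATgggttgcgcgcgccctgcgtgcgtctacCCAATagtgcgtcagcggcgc

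Top2a holds 3 NF-Y boxes and 1 CHR in this stretch, Cdk1 2 and 2, Mki67 3 and 2, and Ube2c 2 and 1. Ccnb2 holds 3 NF-Y boxes in it, and its CHR matches lie outside the stretch. Of these genes, Top2a and Ccnb2 had no control count, Cdk1 and Ube2c were at 0 in control 1 and at 156 and 143 counts in control 2, and Mki67 had counts in both.

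A pair of helicase genes shows E2F-type sites beside NF-Y boxes without a CHR. Of the 14 S phase promoters, 5 held an E2F-type site, so the pair does not stand for the group.
Mcm6, chr1:128359706-128359825, minus strand: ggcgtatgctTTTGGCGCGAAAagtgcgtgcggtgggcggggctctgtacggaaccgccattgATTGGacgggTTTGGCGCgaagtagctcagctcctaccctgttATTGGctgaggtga
Mcm5, chr8:75109349-75109448, plus strand: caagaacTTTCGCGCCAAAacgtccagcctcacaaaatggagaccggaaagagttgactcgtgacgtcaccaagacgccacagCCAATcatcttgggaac

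Mcm6 holds 3 E2F-type matches, of which a pair overlaps on opposite strands, and 2 NF-Y boxes. Mcm5 holds an overlapping pair of E2F-type matches and 1 NF-Y box in the stretch. Both genes had counts in both controls, at 24.3 and 17.7 normalized CPM for Mcm6 and 14.5 and 2.99 for Mcm5, and neither was called in any comparison. None of these letters was found in the windows of Ccne1, called lower after injury, of Tyms, which was not called, or of Tk1, Mybl2, Birc5 and Nusap1, called higher in both comparisons. A match is a description of the sequence only.

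**Figure D5:**
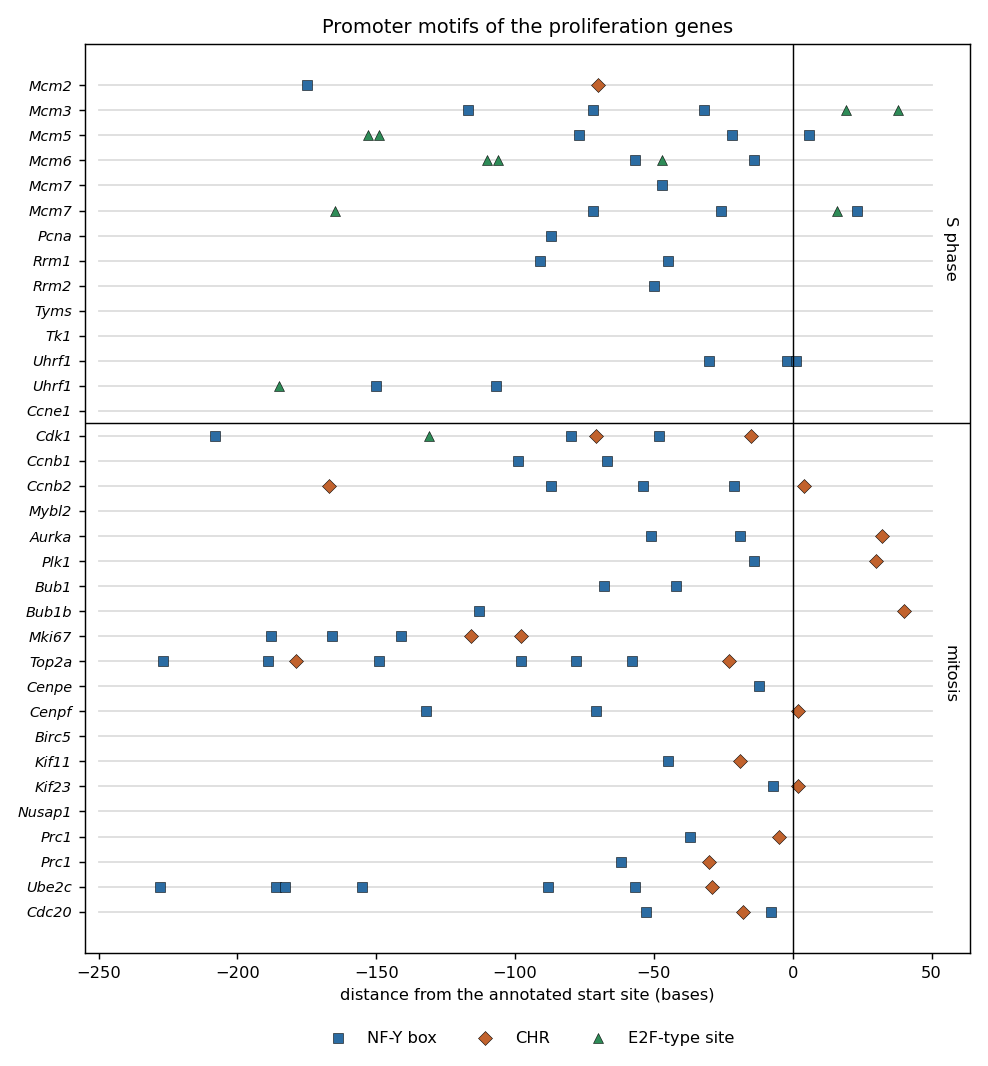
Position of motif matches (NF-Y box, CHR and E2F-type site) relative to the annotated start in the 34 RefSeq promoters of 31 proliferation genes, with 1 row per start and the S phase genes above the mitosis genes. CHR matches are found in 14 of the 20 mitosis rows and 1 of the 14 S phase rows, and E2F-type matches in 1 and 5 of them.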

How the data were processed

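Per the labels, total RNA from cord was prepared with a stranded pico-input kit and sequenced as 150-base pairs. The submitters' processing notes name FastQC 0.12.1, Trimmomatic 0.38, STAR 2.5.4b, RSEM 1.3.1 and mm10. The deposited tables hold whole-number counts without normalization, whose counting step is not given in the sources used here, and TPM, scaled for length and depth by the authors. Groups came from the sample labels. The test was the quasi-likelihood F test of edgeR 4.0.16 (R 4.3.3) after TMM scaling, fitted on 2 groups at a time, with Benjamini-Hochberg adjustment over 16091 genes. SE is the log2 fold change divided by the root of F. DESeq2 1.42.0, limma 3.58.1, other filters and each mouse left out were alternatives, and leaving out SCI + Vehicle replicates 2 and 4 together was chosen after seeing the data. On simulated data of 15947 genes, edgeR recovered 39.5% of genes changed by 1.5 on the log2 scale in SCI + Vehicle vs. Uninjured Control and 94.5% between treatments. The changed genes had a mean of at least 50 counts, and no separate excess of zeros in the controls was simulated. These shares therefore do not describe sparsely counted genes or genes at 0 in a control. Libraries held 14823292 to 25579826 counts, and a count of 0 allows 0.116 to 0.204 normalized CPM. Limits cover counting error only. P-values rest on the spread between mice within groups, which edgeR estimates in part across genes. For genes at 0 in both controls they do not measure the spread between control mice.

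The genes, their roles and all lists were chosen with earlier results of these data known. Genes called in a comparison, with Mki67, Top2a, Cdk1 and Pcna, are described with values, other members by counts and ranges. From each pathway list the 5 called genes with the smallest p are named. Lists cover other replication, other mitosis and G1 genes, and markers of neuron, oligodendrocyte precursor, astrocyte, microglia or macrophage, fibroblast, endothelium, ependyma, lymphocyte, marrow granulocyte precursor, erythroid, liver and skeletal muscle cells. Ighm was not analysed here. Figures used matplotlib 3.10.9 in Python 3.11.15. The sample labels give 6 weeks after injury as the endpoint.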

Additional observations from a re-analysis of the deposited data

Results flagged for a closer look

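In 76 groups of 7 mice (38 genes, 2 treatments), 9 had a mouse whose gap to its nearest neighbour was large for the range of the group by Dixon's test at the 95% level. Chance flags about 1 in 20 such groups. All values are normalized CPM.

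SCI + Vehicle replicate 2 accounted for 4, being highest for Mki67 (118, nearest 55.5), Top2a (27.8, nearest 14.82), Rrm1 (38.2, nearest 27.0) and Rrm2 (8.65, nearest 3.74). SCI + Vehicle replicate 4 was lowest for Cenpe (3.06, nearest 11.8). SCI + Atorvastatin replicate 3 was highest for Cdk1 (4.11, nearest 1.86) and Aurka (3.87, nearest 1.89). SCI + Atorvastatin replicate 2 was highest for Bub1 (2.26, nearest 1.03). SCI + Atorvastatin replicate 4 was lowest for Mybl2 (0.123 from 3 counts, nearest 2.03).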

How the results depend on the processing

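The number of proliferation genes called against controls was 15 with vehicle and 18 with atorvastatin. It stayed within 1.5 times under DESeq2 (19 and 21), DESeq2 size factors (15 and 18), no gene filter (16 and 18), all 3 groups in 1 fit (21 and 21), limma on log2(TPM + 1) (14 and 23, with 9 and 17 of the calls kept) and an adjusted p under 0.01 (12 and 16). With a mean TPM above 1 required in every group, 17 genes were tested and 1 and 3 were called. The limma voom fit with group quality weights called 0 and 0, beside 133 and 146 genes over the whole table. Leaving out 1 mouse gave 13 to 23 calls with vehicle and 17 to 28 with atorvastatin. The high ends came from leaving out a control (23 without control 1 and 22 without control 2 with vehicle, 28 and 28 with atorvastatin), where the lone control is assumed to vary like the SCI mice. Without SCI + Vehicle replicates 2 and 4 there were 16.

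The replicate numbers shared by the SCI groups did not pair the mice, since 1 of 7 same-numbered pairs had a correlation of deviations over 0.1 and no mouse correlated best with its own number. With the replicate block, in which 2 pairs carry the comparison with controls, 0 and 0 genes were called.

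Cdk1 changed sign against controls, to 0.63 with vehicle and 1.80 with atorvastatin (log2) under voom weights and 1.74 and 1.84 with the replicate block. With 1 mouse left out it ranged from -2.20 to 8.08 and from -1.90 to 8.42, the upper ends without control 2. Between treatments the count of calls was 0 in every setting run. With 1 mouse left out the log2 fold change ranged from -0.12 to 0.39 for Mki67, from -0.017 to 0.34 for Top2a and from -0.042 to 0.78 for Cdk1, and so crossed 0 for each. The ratio of summed S phase levels of SCI + Atorvastatin to controls was 1.29 in TPM and 1.45 in normalized CPM. The cause of these changes was not tested. With 2 controls, depth and number limit all statements on genes at 0 in a control.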
